A study of Arabidopsis thaliana with 12 samples.

Results

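SDI1, SDI2, LSU1 and GGCT2;1 are genes whose transcripts are widely used to read out sulfur deficiency in Arabidopsis thaliana. Their 4 probe sets were chosen by name, with earlier results of these data known, among the 22810 probe sets of an Affymetrix array. The question was how far the induction of each on low sulfate depends on the transcription factor SLIM1. The members were SDI1 (AT5G48850, probe set ATH1.248676_at), SDI2 (AT1G04770, probe set ATH1.261177_at), LSU1 (AT3G49580, probe set ATH1.252269_at) and GGCT2;1 (AT5G26220, probe set ATH1.246884_at), each probe set written after the name of its array, ATH1. The pairing of SDI1, LSU1 and GGCT2;1 with their probe sets came with the choice of members, since the probe annotation used here lists 1 of the 4, the probe set of AT1G04770. RefSeq lists these loci as ATSDI1, LSU1 and, as a synonym, GGCT2;1, and the name SDI2 came with the choice of members.

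Plants sense a shortage of sulfate mainly in the root, where uptake and assimilation genes are induced and sulfur-rich secondary compounds are broken down or no longer made. SLIM1, also called EIL3, is a transcription factor of the ETHYLENE INSENSITIVE3-like family and a central regulator of that response. SDI1 and SDI2 encode related tetratricopeptide repeat proteins, and SDI1 is known to bind the transcription factor MYB28 and to hold back aliphatic glucosinolate synthesis. LSU1 encodes a small plant-specific coiled-coil protein that binds many partners, and GGCT2;1 encodes a gamma-glutamyl cyclotransferase that breaks down cytosolic glutathione and so releases its cysteine for reuse. Transcripts of SDI1, LSU1 and GGCT2;1 are known to follow the cysteine precursor O-acetylserine, which accumulates when sulfide is short.

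RNA came from roots of plants grown upright on agar for 10 days. All lines were Columbia carrying PSULTR1;2-GFP, a GFP reporter under control of a sulfate transporter promoter, and this reporter line without a further mutation was the parental line, P. The mutants slim1-1 and slim1-2 were isolated from it because their GFP signal responded poorly to sulfur limitation, so each stands for 1 isolated line chosen by a low-sulfate response of another gene's promoter. MgSO4 was added to 1500 µM in the sufficient medium, S1500, or to 15 µM in the low-sulfate medium, S15, and washed agar left about 10 µM of residual sulfate. Each of the 6 groups had 2 arrays that the labels call biological replicates, 12 arrays in all. SLIM1 itself was not analysed here. Whole roots were sampled, so more RNA per cell and more cells of a type cannot be told apart.

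Array medians ran from 65.65 to 174.95 in the deposited signals, with slim1-2-S15 replicate 2 the brightest, and signals were therefore quantile-normalized on the log2 scale. Across the 13647 probe sets tested, which are not independent replicates, the correlation was 0.982 to 0.988 within groups and 0.964 to 0.987 between them. The background of an array was marked by its brightest control probe set among the 27 for Bacillus subtilis genes, which find no target in plant RNA unless it is added, and is called the control bound. It lay between 3.29 and 4.74 on the log2 scale. Root identity was read from PYK10, EXPA7 and EXPA18, the 3 of 8 listed root markers named here, and each lay above the control bound on all 12 arrays. So did RCA, LHCB4.1 and LHCB4.2, 3 of 6 listed shoot markers, whose values in the comparisons between lines are given below. Below, a level is a quantile-normalized log2 signal, and a response is the level on S15 minus the level on S1500. Errors are SD over the 2 arrays for levels and SE of the fit for differences, and a probe set was called when its Benjamini-Hochberg adjusted p from limma over all 13647 tested probe sets was under 0.05.

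All 4 markers rose on low sulfate in all 3 lines, and on S15 the levels in the slim1 lines lay close to those of P. In P the rise was 70.7-fold for SDI1, 69.3-fold for GGCT2;1 and 3.87-fold for SDI2. For LSU1 it was 80.8-fold as measured and 66.8-fold with each value held at or above the control bound, since 1 of its 2 P-S1500 arrays lay below the bound. Averaged over the slim1 lines, the rise of SDI1, LSU1 and GGCT2;1 was called smaller than in P, and that of SDI2 was not called different. SDI1 and LSU1 differed between lines mainly on S1500: SDI1 was 4.99-fold and LSU1 3.26-fold above P there in the mean of both slim1 lines. On S15 the same genes differed from P by 1.27-fold and 1.09-fold and were not called.

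**Figure D1:**
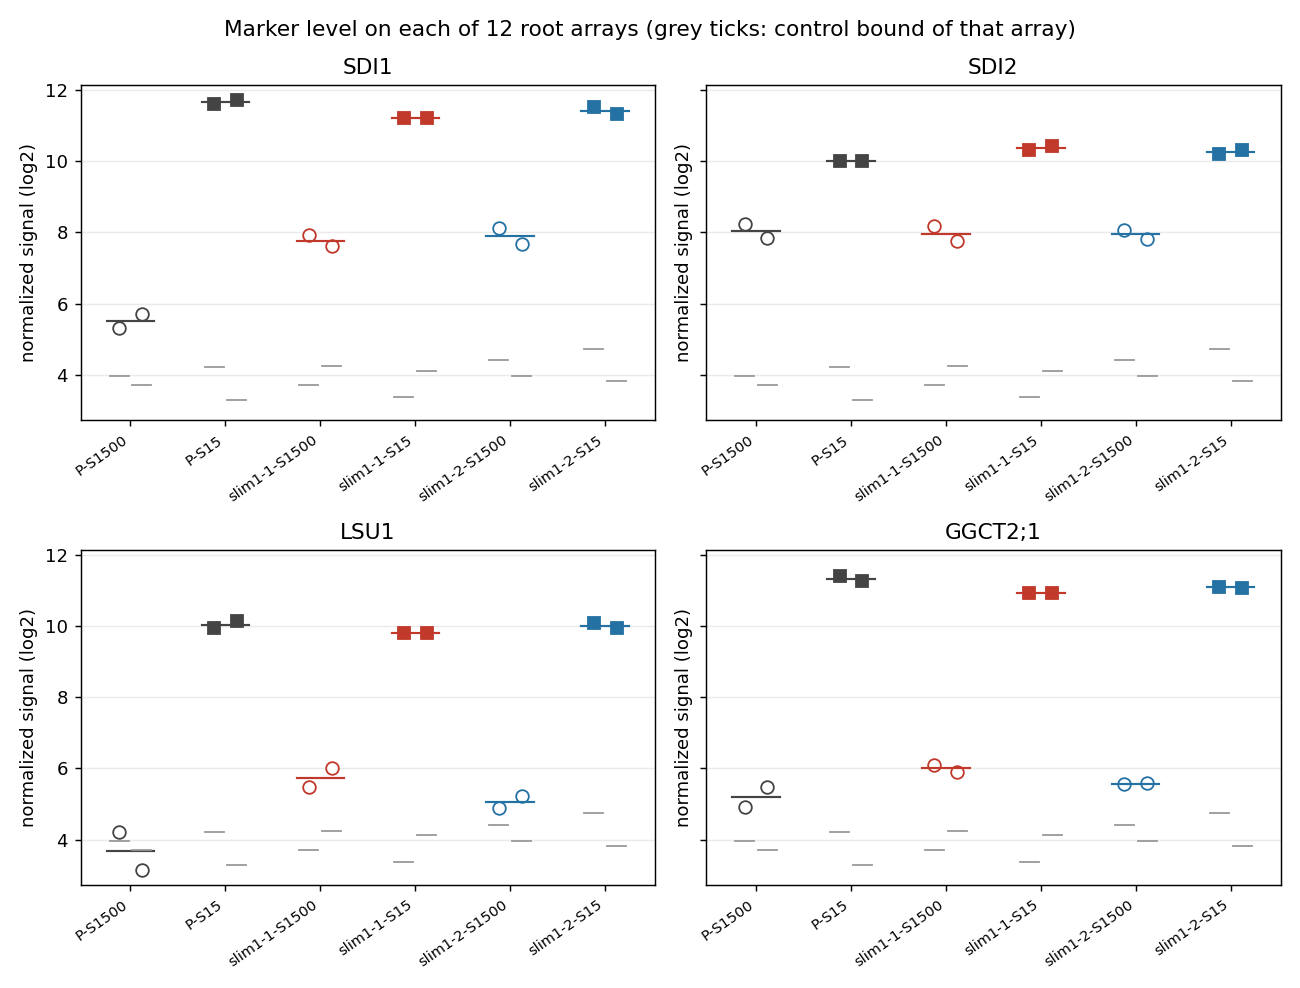
Level of each marker on every array, with the normalized log2 signal on the vertical axis and the 6 groups on the horizontal axis (open circles S1500, filled squares S15, horizontal lines group means of 2 arrays, grey ticks the control bound of each array). On S1500 the slim1 arrays of SDI1 (7.61 to 8.13) and of LSU1 (4.88 to 6.003) lay above the P arrays (5.33 and 5.70, 3.16 and 4.23), while the S15 arrays of the 3 lines lay close together for every marker.

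SDI1, the repressor of glucosinolate synthesis, had levels of 5.33 and 5.70 on the P-S1500 arrays and of 11.61 and 11.71 on the P-S15 arrays. In slim1-1 the levels of SDI1 were 7.92 and 7.61 on S1500 and 11.22 and 11.20 on S15. In slim1-2 they were 8.13 and 7.67 on S1500 and 11.52 and 11.32 on S15. The S15 arrays lay above the S1500 arrays in every line, and both pairs of slim1-S1500 arrays lay above both P-S1500 arrays. The deposited signals of SDI1 on S1500, with no normalization between arrays, also lay higher in both slim1 lines than in P. They were 36.2 and 37.1 in P, 224.5 and 219.9 in slim1-1, and 220.8 and 199.7 in slim1-2. Ordered from low to high, SDI1 group means ran P-S1500 (5.51 ± 0.27, SD, n = 2), slim1-1-S1500 (7.77 ± 0.22), slim1-2-S1500 (7.90 ± 0.32), slim1-1-S15 (11.21 ± 0.015), slim1-2-S15 (11.42 ± 0.14) and P-S15 (11.66 ± 0.072). The arrays of slim1-1-S1500 and slim1-2-S1500 overlapped, and the other neighbours in this order did not.

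SDI1 rose on S15 by 6.14 ± 0.15 in P (adjusted p = 6.04e-12 from limma, n = 2 arrays per group), the 4th highest change of all 13647 probe sets. It rose by 3.44 ± 0.15 in slim1-1 (10.9-fold, adjusted p = 5.82e-09) and by 3.52 ± 0.15 in slim1-2 (11.5-fold, adjusted p = 4.97e-09). The difference of response, that is, the response averaged over slim1-1 and slim1-2 less the response in P, was -2.66 ± 0.19 for SDI1 (95% interval -3.07 to -2.26, adjusted p = 2.51e-06). The slim1-1 and slim1-2 responses differed by -0.08 (95% interval -0.55 to 0.39, adjusted p = 0.994). On S1500, SDI1 was 2.25 ± 0.15 above P in slim1-1 (adjusted p = 9.14e-06) and 2.39 ± 0.15 above P in slim1-2 (adjusted p = 3.78e-06). Averaged over slim1-1 and slim1-2 it was 2.32 ± 0.13 above P on S1500 (adjusted p = 1.32e-06), the highest change of all tested probe sets in that comparison. On S15, SDI1 was 1.37-fold lower than in P in slim1-1 (95% interval 1.09 to 1.72, adjusted p = 0.231) and 1.18-fold lower in slim1-2 (0.938 to 1.49, adjusted p = 0.564). The SDI1 arrays of P-S15 lay above all 4 slim1-S15 arrays, although neither difference was called. Every call of SDI1 on S1500 and in the difference of response held whichever array was left out, and in the latter the value then ran from -2.84 to -2.47.

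SDI2, the closest relative of SDI1 among the members, showed no such gap on S1500. Its levels were 8.23 and 7.86 in P, 8.18 and 7.76 in slim1-1 and 8.08 and 7.81 in slim1-2 on that medium. On S15 the levels of SDI2 were 10.00 and 9.99 in P, 10.32 and 10.43 in slim1-1 and 10.21 and 10.32 in slim1-2. The 6 S1500 arrays overlapped across lines, and on S15 the slim1 arrays lay above both P arrays. From low to high the SDI2 group means ran slim1-2-S1500 (7.95 ± 0.19), slim1-1-S1500 (7.97 ± 0.29), P-S1500 (8.04 ± 0.27), P-S15 (10.00 ± 0.0081), slim1-2-S15 (10.27 ± 0.073) and slim1-1-S15 (10.37 ± 0.079). The 3 S1500 groups overlapped in this order, P-S15 did not overlap its neighbours, and the 2 slim1 groups met at 10.32 on S15.

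The responses of SDI2 were 1.95 ± 0.15 in P, 2.41 ± 0.15 in slim1-1 and 2.32 ± 0.15 in slim1-2, each called by limma (adjusted p = 8.85e-07, 1.65e-07 and 2.89e-07). Against P on S1500, SDI2 differed by -0.08 ± 0.15 in slim1-1 (95% interval -0.39 to 0.24, adjusted p = 0.904) and by -0.10 ± 0.15 in slim1-2 (-0.41 to 0.22, adjusted p = 0.822). On S15 it was 0.38 ± 0.15 above P in slim1-1 (0.06 to 0.69, adjusted p = 0.315) and 0.27 ± 0.15 above P in slim1-2 (-0.04 to 0.58, adjusted p = 0.476). The difference of response by line was 0.45 for slim1-1 (0.01 to 0.90, adjusted p = 0.7) and 0.36 for slim1-2 (-0.08 to 0.81, adjusted p = 0.614). None of these differences between lines was called, and the lower ends of the 2 intervals of the difference of response were 0.01 and -0.08.

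LSU1, the gene of the small coiled-coil protein, was close to background on sufficient sulfate in P. Its levels there were 4.23 and 3.16, against control bounds of 3.96 and 3.71, so 1 of the 2 arrays lay below its bound. On S1500 LSU1 reached 5.48 and 6.003 in slim1-1 and 4.88 and 5.22 in slim1-2, above the bound on each of these arrays. On S15 its levels were 9.93 and 10.13 in P, 9.81 and 9.81 in slim1-1 and 10.08 and 9.94 in slim1-2. The S1500 arrays of each slim1 line lay above both P-S1500 arrays, and on S15 the arrays of slim1-2 overlapped those of P. The deposited LSU1 signals on S1500 were 17 and 5.7 in P, 42.9 and 69.8 in slim1-1 and 24.2 and 38.6 in slim1-2. The LSU1 group means ran P-S1500 (3.69 ± 0.76), slim1-2-S1500 (5.05 ± 0.24), slim1-1-S1500 (5.74 ± 0.37), slim1-1-S15 (9.81 ± 0.0012), slim1-2-S15 (10.01 ± 0.098) and P-S15 (10.03 ± 0.14). Of the neighbours in this order, slim1-2-S15 and P-S15 overlapped.

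LSU1 rose by 6.34 ± 0.26 in P, by 4.07 ± 0.26 in slim1-1 (16.8-fold) and by 4.96 ± 0.26 in slim1-2 (31.1-fold), with adjusted p = 1.12e-09, 3.20e-07 and 4.94e-08 from limma. When each value was held at or above its array's control bound, the parental response of LSU1 was 6.06. The difference of response was -1.82 ± 0.32 (95% interval -2.52 to -1.13, adjusted p = 0.0122), and by line it was -2.27 ± 0.37 for slim1-1 (adjusted p = 0.0107) and -1.38 ± 0.37 for slim1-2 (adjusted p = 0.14). The slim1-1 and slim1-2 responses of LSU1 differed by -0.89 (-1.69 to -0.09, adjusted p = 0.894). On S1500 LSU1 was 2.05 ± 0.26 above P in slim1-1 (adjusted p = 0.00182) and 1.36 ± 0.26 above P in slim1-2 (adjusted p = 0.0158), or 1.77 and 1.08 when held at the bound. On S15 it differed from P by -0.22 ± 0.26 in slim1-1 (-0.79 to 0.34, adjusted p = 0.823) and by -0.02 ± 0.26 in slim1-2 (-0.59 to 0.54, adjusted p = 0.985). The call of the LSU1 difference of response was lost without P-S15 replicate 2 (-1.73, adjusted p = 0.1). On S1500 the slim1-2 call of LSU1 was lost without P-S1500 replicate 2 (0.82, adjusted p = 0.0794), the array below its control bound, or without slim1-2-S1500 replicate 2 (1.19, adjusted p = 0.123). By line, the slim1-1 difference of LSU1 lost its call without P-S15 replicate 2 (-2.17), without slim1-1-S1500 replicate 2 (-2.01) and without either slim1-1-S15 array (-2.26 and -2.28), and the slim1-2 difference gained one without P-S1500 replicate 1 (-1.92).

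GGCT2;1, the glutathione-degrading enzyme, kept most of its response in the mutants. Its S1500 levels were 4.93 and 5.48 in P, 6.09 and 5.91 in slim1-1 and 5.57 and 5.58 in slim1-2. Its S15 levels were 11.39 and 11.25 in P, 10.91 and 10.92 in slim1-1 and 11.09 and 11.08 in slim1-2. On S1500 each slim1 array lay above both P arrays, by little in slim1-2, and on S15 each slim1 array lay below both P arrays. The GGCT2;1 group means ran P-S1500 (5.20 ± 0.39), slim1-2-S1500 (5.58 ± 0.011), slim1-1-S1500 (6.003 ± 0.13), slim1-1-S15 (10.92 ± 0.0075), slim1-2-S15 (11.08 ± 0.0079) and P-S15 (11.32 ± 0.10). No neighbours in this order overlapped.

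GGCT2;1 rose by 6.12 ± 0.14 in P, by 4.92 ± 0.14 in slim1-1 (30.2-fold) and by 5.50 ± 0.14 in slim1-2 (45.4-fold), with adjusted p = 3.80e-12, 4.97e-11 and 3.20e-11 from limma. Its rise was the highest of all tested probe sets in slim1-2. The difference of response was -0.90 ± 0.18 (95% interval -1.28 to -0.52, adjusted p = 0.0253), and by line it was -1.20 ± 0.20 for slim1-1 (adjusted p = 0.0149) and -0.61 ± 0.20 for slim1-2 (-1.05 to -0.17, adjusted p = 0.272). The slim1-1 and slim1-2 responses of GGCT2;1 differed by -0.59 (-1.03 to -0.15, adjusted p = 0.741). On S1500 GGCT2;1 was 0.80 ± 0.14 above P in slim1-1 (adjusted p = 0.0243), and 0.37 ± 0.14 above P in slim1-2 without passing (adjusted p = 0.228). On S15 it was 1.32-fold lower than in P in slim1-1 (1.06 to 1.63, adjusted p = 0.264) and 1.18-fold lower in slim1-2 (0.951 to 1.46, adjusted p = 0.533).

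The calls of GGCT2;1 between lines rested on few arrays. Its difference of response stayed called in 4 of 12 omissions of 1 array, ran from -1.17 to -0.63, and reached adjusted p = 0.162 at most. The array that moved it most was P-S1500 replicate 1, without which it was -0.63 (adjusted p = 0.11). The call was also lost without P-S15 replicate 1 (-0.83) or 2 (-0.98), slim1-1-S1500 replicate 1 (-0.86), slim1-1-S15 replicate 1 (-0.899) or 2 (-0.911), and slim1-2-S15 replicate 1 (-0.907) or 2 (-0.908). On S1500 the slim1-1 call of GGCT2;1 was lost without P-S1500 replicate 1 (0.53) and without either slim1-1-S1500 array (0.71 and 0.89). Without P-S1500 replicate 2 the slim1-2 value on S1500 was 0.64 and was called (adjusted p = 0.0253), as was the slim1-2 difference of response (-0.88). The slim1-1 difference of response lost its call without P-S15 replicate 1 (-1.12), slim1-1-S1500 replicate 1 (-1.11) or either slim1-1-S15 array (-1.19 and -1.21).

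**Figure D2:**
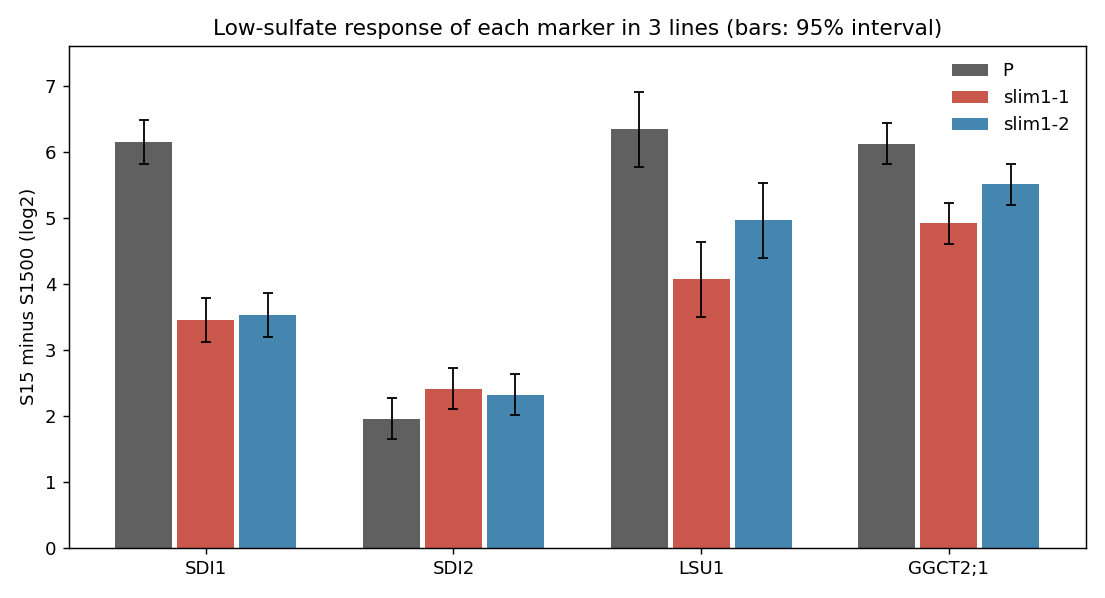
Low-sulfate response of each marker in P, slim1-1 and slim1-2, as the S15 minus S1500 difference on the log2 scale, with 95% intervals of the fit (2 arrays per group). For SDI1 the responses of slim1-1 (3.44) and slim1-2 (3.52) lie well below that of P (6.14), while for SDI2 they lie at 2.41 and 2.32 against 1.95 in P.

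Across the set, 4 of 4 markers were called higher on S15 in P, where 1.78% of all tested probe sets were, and 4 of 4 in slim1-1 and in slim1-2, where 0.806% and 1.06% were. The markers are known low-sulfate genes, chosen with earlier results of these data known, so these counts describe them and are not a test. LSU1 and GGCT2;1 passed the filter on mean level (5.77) only through their S15 arrays. The S1500 group means of LSU1 were 3.69 in P, 5.05 in slim1-2 and 5.74 in slim1-1. Those of GGCT2;1 were 5.20 in P, 5.58 in slim1-2 and 6.003 in slim1-1, and their mean lay under the filter. The median response of the 4 was 6.13 in P, 3.75 in slim1-1 and 4.24 in slim1-2, beside medians over all tested probe sets of 0.0035, 0.0016 and 0.011. The difference of response was called lower for 3 of 4, against 0.652% of tested probe sets, and SDI1, LSU1 and GGCT2;1 took the places 4, 11 and 73 from the lowest of 13647. By line, 3 of 4 were called lower in slim1-1 (0.315% of tested probe sets) and SDI1 alone in slim1-2 (0.608%). Between the slim1-1 and slim1-2 responses limma called 0 of 4, with 2 at an unadjusted p under 0.05 (LSU1 and GGCT2;1), and it called 0.11% of all tested probe sets. The 2 slim1 lines are compared with the same P arrays, so their values stand side by side and are not independent of each other.

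The share of the parental log2 response that each slim1 line kept puts the markers on 1 scale. A higher level on S1500 lowers this share just as a lower level on S15 does. Under the main setting no marker was called different from P on S15, so a low share does not by itself show a loss of level there. A missed call does not show equal levels either. For SDI1 and GGCT2;1 every slim1-S15 array lay below both P-S15 arrays. SDI1 kept 56.0% in slim1-1 (95% interval 49.8 to 62.2) and 57.3% in slim1-2 (51.0 to 63.5). LSU1 kept 64.2% (53.5 to 74.8) and 78.3% (66.9 to 89.6). GGCT2;1 kept 80.4% (73.9 to 86.9) and 90.0% (83.2 to 96.8). SDI2 reached 123% (97.8 to 149) and 119% (93.8 to 143) of the parental response. The order SDI1, LSU1, GGCT2;1, SDI2 from the least to the most response kept was found in slim1-1 and in slim1-2, and in 21 of 21 alternative settings of each line, which share most arrays. Part of these settings could not test the order. Changing the filter, the intensity trend or the replicate block leaves the shares as they are. Omitting an array of the other slim1 line moves them only through the normalization. Differences between markers in this share were not tested, and the interval of LSU1 overlapped that of SDI1 in slim1-1 and that of GGCT2;1 in both lines, as did those of GGCT2;1 and SDI2 in slim1-2. The share uses the level on S1500, so it depends on how low signals are treated: with 64 added to every signal, SDI1 kept 63.4% and 65.4% and LSU1 78.7% and 90.9%.

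For SDI1 and LSU1 the lines differed mainly on S1500, while for GGCT2;1 both media contributed. On S1500, 3 of 4 markers were called above P in slim1-1, where 0.0659% of all tested probe sets were called higher, and 2 of 4 in slim1-2, where 1.02% were. In the mean of both slim1 lines on S1500, SDI1 (2.32), LSU1 (1.70, adjusted p = 0.00221) and GGCT2;1 (0.59, adjusted p = 0.0425) were called higher, against 0.322% of tested probe sets. SDI1 and LSU1 held places 1 and 2 of 13647 there, and GGCT2;1 place 78. The GGCT2;1 call in this mean was lost in 11 of 12 omissions of 1 array, all but that of P-S1500 replicate 2, with values from 0.31 (without P-S1500 replicate 1) to 0.85. It was also lost in 5 of 9 other settings: as deposited (0.84), with 16 added to every signal (0.43), with 64 added (0.24), with no filter (adjusted p = 0.107) and with no intensity trend (adjusted p = 0.1). The slim1-1 call of GGCT2;1 on S1500 was lost as deposited (1.14), with 64 added (0.34, adjusted p = 0.143), with no filter (adjusted p = 0.0733) and with no intensity trend (adjusted p = 0.0908), and with 64 added its S15 difference was called instead (-0.39, adjusted p = 0.0411). On S15, limma called 0 of 4 in slim1-1, with 3 at an unadjusted p under 0.05, and 0 of 4 in slim1-2, with 0 at that level, while 1.60% and 1.55% of tested probe sets were called. Of the SDI1 difference of response of -2.70 in slim1-1, -0.45 arose on S15 and 2.25 on S1500, and for LSU1 the parts were -0.22 and 2.05. In slim1-2 they were -0.24 and 2.39 for SDI1 and -0.0213 and 1.36 for LSU1. For GGCT2;1 they were -0.40 and 0.80 in slim1-1 and -0.24 and 0.37 in slim1-2, where neither was called.

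**Figure D3:**
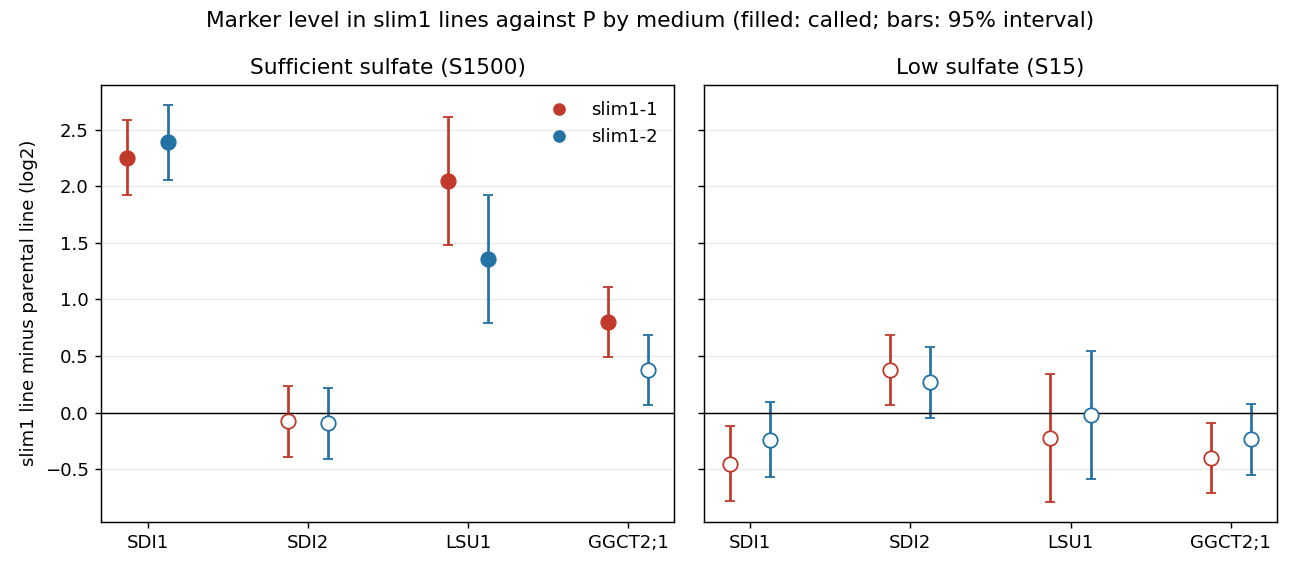
Level of each marker in slim1-1 and slim1-2 minus P on the log2 scale, on S1500 (left) and S15 (right), with 95% intervals and filled points where the difference was called. On S1500 SDI1 lies at 2.25 and 2.39 and LSU1 at 2.05 and 1.36 above P, while on S15 all values lie between -0.45 and 0.38 and none is called.

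Of the 3 shoot markers, 1 was called in the mean of both slim1 lines on S1500 and 2 on S15, all lower than in P. On S1500, RCA, rubisco activase, was lower by -0.59 (adjusted p = 0.00473), with the call lost without P-S1500 replicate 1 (-0.46), and the light-harvesting genes LHCB4.1 (-0.11, adjusted p = 0.781) and LHCB4.2 (-0.42, adjusted p = 0.178) were not called. On S15, RCA was lower by -0.59 (adjusted p = 0.00196), with the call lost without P-S15 replicate 1 (-0.55), and LHCB4.2 by -1.18 (adjusted p = 1.74e-04), while LHCB4.1 was not called (-0.19, adjusted p = 0.543). The summed linear signal of RCA, LHCB4.1 and LHCB4.2 ran from 1310 to 1499 in P-S1500, 791 to 843 in slim1-1-S1500 and 1334 to 1352 in slim1-2-S1500. On S15 the sum ran from 1108 to 1118 in P, 704 to 797 in slim1-1 and 804 to 845 in slim1-2. The summed root markers PYK10, EXPA7 and EXPA18 ran from 7819 to 8065 in P-S1500, 6924 to 7310 in slim1-1-S1500 and 7591 to 7622 in slim1-2-S1500. Their sum on S15 ran from 7596 to 7802 in P, 7034 to 7233 in slim1-1 and 7478 to 7503 in slim1-2. EXPA7 and EXPA18, expansins of root hairs, rose on S15 in P by 0.76 and 0.78 (adjusted p = 0.00799 and 9.78e-04) and were called lower in the difference of response (-0.86, adjusted p = 0.0418, and -0.81, adjusted p = 0.0118). In the mean of both slim1 lines on S15 they were lower than in P by -0.74 and -0.58 (adjusted p = 0.00608 for each). PYK10 was called neither in the parental response (-0.11, adjusted p = 0.354) nor in the difference of response (0.11, adjusted p = 0.686). The part of these genes and of the shoot markers in the marker results was not tested.

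Relatives of the members were few among the named probe sets. Of 5 listed genes of the SDI family, AT3G51280 was the 1 tested besides SDI1 and SDI2, and its parental response was -0.18 ± 0.16 (adjusted p = 0.677), or 0.08 with signals as deposited. AT5G44330 of the same family lay below the control bound on all 12 arrays and was not tested. LSU3, which lies next to LSU1 in the RefSeq gene order, was not analysed here, nor were LSU2 and LSU4. Of 10 listed genes of glutathione synthesis and the gamma-glutamyl cycle, GGCT2;3 was the 1 tested besides GGCT2;1, and its parental response was -0.12 ± 0.13 (adjusted p = 0.738), or 0.13 with signals as deposited. EIN3, the 1 tested of 6 listed genes of the family that SLIM1 belongs to, was called neither in the response of any line nor in the difference of response, and EIL4 and EIL5 fell below the filter on low signals.

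Other genes of the low-sulfate response differed between lines on both media. More of them were called on S15 than on S1500, as was so over all tested probe sets (296 against 147). Of 21 listed genes, 7 were tested, and in P 5 of them rose on S15 and 2 fell, where 1.78% of tested probe sets rose and 2.06% fell. The list was chosen with earlier results of these data known, so its counts describe these genes and are not a test. In the mean of both slim1 lines on S1500, 1 of 7 was higher than in P and 1 lower, where 0.322% and 0.755% of tested probe sets were. MGL, methionine gamma-lyase, which breaks down methionine, was 0.85 above P (adjusted p = 0.00248), and ATPS4, an ATP sulfurylase, which fell on S15 in P, was lower by -0.61 (adjusted p = 0.00199). The call of MGL was lost without P-S1500 replicate 1 (0.71, adjusted p = 0.0999). The beta-glucosidase gene BGLU28 was 0.73 above P without passing (adjusted p = 0.0696), and passed without P-S1500 replicate 1 (1.07, adjusted p = 0.0357). It also passed with arrays centred on their medians in place of quantile normalization (0.87, adjusted p = 0.0398). BGLU28 lay above the control bound on 9 of 12 arrays. Its value ran from 0.40 to 1.07 over the omissions and from 0.14 to 1.09 over the other settings. AT1G12030 was 1.46 above P (adjusted p = 0.137) with 7 of 12 arrays above the control bound. It passed without slim1-1-S1500 replicate 1 (1.84), without slim1-2-S1500 replicate 2 (1.86) and with signals as deposited (1.91). AT1G75280, ATPS3 and SIR differed by 0.10, -0.17 and -0.16 and were not called, and the values of ATPS3 and SIR turned to 0.05 each with signals as deposited.

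On S15, 3 of these 7 genes were lower in the mean of both slim1 lines than in P and 1 was higher, where 1.43% and 0.740% of tested probe sets were. BGLU28 was lower by -3.56 (adjusted p = 3.07e-08), AT1G75280 by -2.22 (adjusted p = 3.16e-10) and ATPS3 by -0.91 (adjusted p = 7.21e-04), and ATPS4 was higher by 1.14 (adjusted p = 1.72e-06). MGL (-0.42, adjusted p = 0.0875), AT1G12030 (0.63, adjusted p = 0.54) and SIR (-0.22, adjusted p = 0.328, or 0.00300 as deposited) were not called. In the difference of response 3 were called lower and 1 higher, against 0.652% and 0.286% of tested probe sets, with BGLU28 at -4.29 (adjusted p = 3.58e-07) and AT1G75280 at -2.32 (adjusted p = 1.87e-08).

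Genes listed for aliphatic glucosinolate synthesis were lower in the slim1 lines on S1500 and higher on S15 where they were called. Of 19 listed genes 4 were tested, and all 4 fell on S15 in P, where 2.06% of tested probe sets fell. This list too was chosen with earlier results known, so its counts are not a test. In the mean of both slim1 lines on S1500, 2 of 4 were lower than in P, where 0.755% of tested probe sets were. BCAT4, which starts methionine side-chain elongation, was lower by -0.58 (adjusted p = 0.0066), and UGT74B1, which glucosylates the core structure, by -0.49 (adjusted p = 0.0313). UGT74C1, another glucosyltransferase, differed by -0.33 (adjusted p = 0.294) and GSTU20, a glutathione S-transferase, by -0.41 (adjusted p = 0.0718). The call of BCAT4 was lost without P-S1500 replicate 1 (-0.56, adjusted p = 0.169). That of UGT74B1 was lost without either P-S1500 array (-0.54 and -0.45), without slim1-1-S1500 replicate 1 (-0.46) or 2 (-0.52), or without slim1-2-S1500 replicate 2 (-0.41). On S15, 3 of the 4 were higher than in P, where 0.740% of tested probe sets were: BCAT4 by 1.06 (adjusted p = 1.44e-05), UGT74C1 by 0.65 (adjusted p = 0.0163) and GSTU20 by 0.51 (adjusted p = 0.0154), while UGT74B1 differed by 0.15 (adjusted p = 0.538). The call of UGT74C1 was lost without P-S15 replicate 2 (0.49) or slim1-2-S15 replicate 2 (0.56), and that of GSTU20 without P-S15 replicate 1 (0.40) or slim1-2-S15 replicate 2 (0.49). In the difference of response all 4 were called higher, BCAT4 (1.64) with the largest value, against 0.286% of tested probe sets. MYB28, the partner of SDI1, was not analysed here, and any part of SDI1 in the values of these genes was not tested.

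The levels of the 4 markers ran together over the 12 arrays, which share the medium as their main source of variation. The 6 pairs of markers had Pearson's r from 0.915 (SDI1 and SDI2) to 0.979 (LSU1 and GGCT2;1). The 5 probe sets with 1 named gene whose levels were most like each marker had r from 0.927 to 0.982, and 10 different genes filled the 20 places. AT5G54040 and AT1G12030 were among the 5 for each of the 4 markers. Among probe sets with 1 named gene, AT5G54040 was the closest to SDI2 (0.973), LSU1 (0.959) and GGCT2;1 (0.982), and AT2G47200 the closest to SDI1 (0.957). Pearson's r takes no account of size. In P, AT5G54040 rose on S15 by 0.77 and AT2G47200 by 0.73, against 6.12 for GGCT2;1, 6.14 for SDI1 and 7.29 for AT1G12030. The last of these lay above the control bound on 7 of the 12 arrays, which limits how far its rise can be measured. AT1G77670, AT3G53980 and AT1G64590 were listed for a pair of markers each, as was AT2G47200. AT1G27030 was listed for SDI1 only, and the glutathione S-transferase gene GSTU22, AT2G47550 and AT5G40590 for SDI2 only. On S1500 none of the 10 was called under the main setting when the slim1 lines, averaged, were compared with P. AT1G12030 had the largest value there (1.46) and was called with signals as deposited (1.91, adjusted p = 0.00398 from limma). On S15 AT1G64590 was called lower (-0.38, adjusted p = 0.018 from limma).

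**Figure D4:**
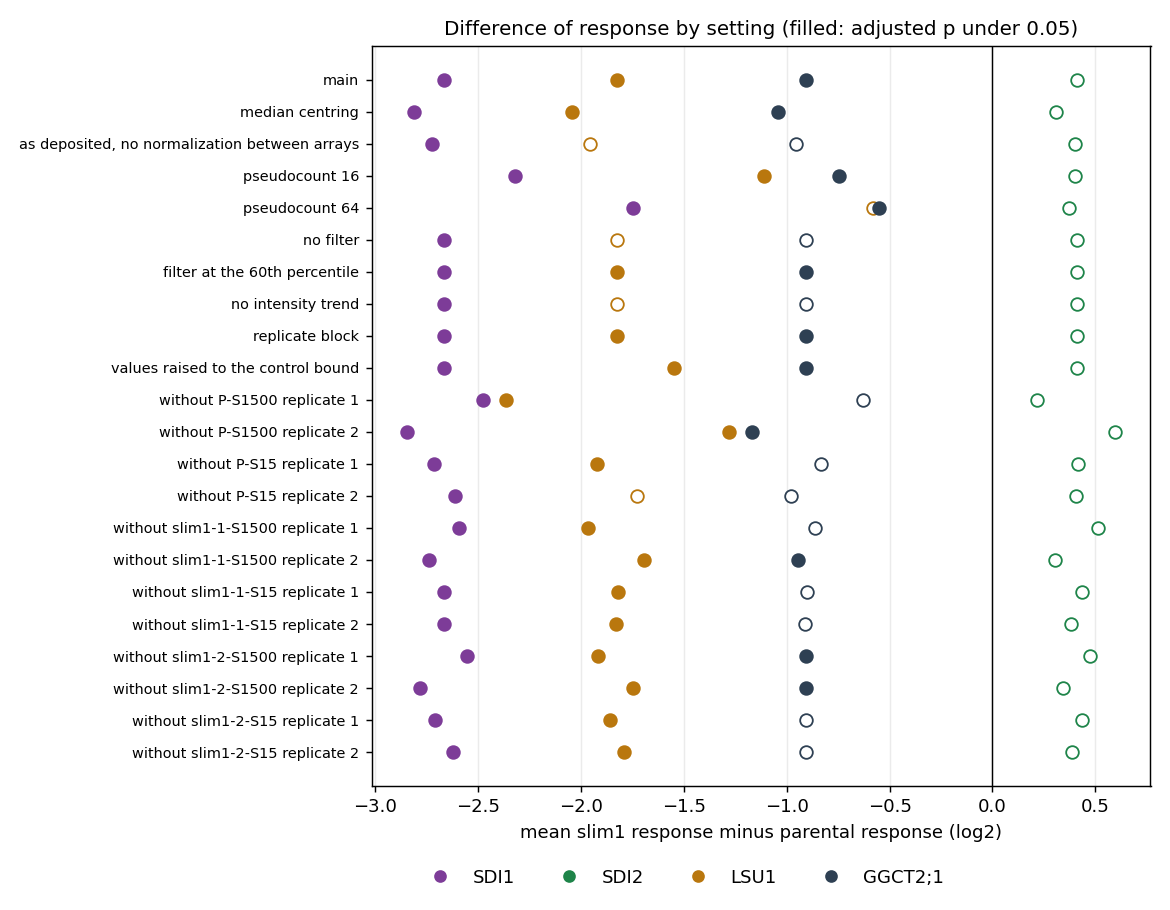
Difference of response (slim1 average less P, log2) of each marker under the main setting and 21 alternatives, with filled points where the adjusted p was under 0.05. SDI1 (purple) is called in every row, LSU1 (orange) in 16 of the 21 alternatives and GGCT2;1 (dark blue) in 10, and SDI2 (green) lies above 0 and is called in none.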

How the data were processed

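Root RNA of 6 groups of line and medium, 2 arrays each, was measured with Affymetrix arrays. The deposited values are linear intensity signals, 1 per probe set and array. Per the submitters' processing notes the authors used MAS5, whose version and scaling target no source used here states. Groups and replicate numbers came from the titles. The number of arrays limits the precision.

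Signals under 1 were set to 1, log2-transformed and quantile-normalized, since array medians spanned 1.41 on the log2 scale. After leaving out 64 controls, 13647 of 22746 probe sets with a mean above the 40th percentile (5.77) were tested. All 12 arrays entered 1 limma fit (version 3.58.1, R 4.3.3) that gave each group its own mean, and eBayes used a trend over intensity, with 6 residual degrees of freedom and a prior of 7.76. Every p is two-sided. The share of response kept has a delta-method interval. The fit alone was tried on simulated data with independent normal noise and known changes added to P-S15. That simulation did not cover the normalization, the filter or probe sets that vary together.

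The 4 markers and all lists were chosen with earlier results of these data known, and the 2 comparisons of the mean of both slim1 lines with P on 1 medium were added after seeing the data. Genes named were the 4 markers, the 5 most like each by Pearson's r, and up to 6 tested members of each list by size of the parental response, plus, chosen after their values were seen, the other tested low-sulfate gene, SIR, and the shoot markers. Of all probe sets, 13513 have 1 gene in the annotation, 503 several, and 8794 are not listed; symbols were updated through RefSeq (TAIR10.1). The deviations of same-numbered replicates correlated at -0.12 to 0.23 over 15 pairs of groups, over 0.1 in 4 of them, so the replicate number was not taken as pairing arrays.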

Additional observations from a re-analysis of the deposited data

Results flagged for a closer look

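The slim1 lines differed from P in the size of the response to low sulfate, by the test of the difference itself in limma, for 3 of the 4 markers. In the mean of both lines the slim1 response minus the parental response was -2.66 for SDI1 (adjusted p = 2.51e-06), -1.82 for LSU1 (adjusted p = 0.0122) and -0.90 for GGCT2;1 (adjusted p = 0.0253). By line it was -2.70 for SDI1, -2.27 for LSU1 and -1.20 for GGCT2;1 in slim1-1, and -2.63 for SDI1 in slim1-2. In slim1-2 LSU1 (-1.38, adjusted p = 0.14) and GGCT2;1 (-0.61, adjusted p = 0.272) were not called. Of 21 alternatives, the call of the mean difference was lost in 5 for LSU1, in 11 for GGCT2;1 and in 0 for SDI1. All these values share the 4 P arrays. No group had the 4 arrays needed to look for a single array far from the others.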

How the results depend on the processing

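Of 336 alternative values of the 16 responses and differences of response (9 settings and 12 omissions of 1 array, for the 3 lines and their mean difference), 320 kept direction and side of the threshold, among them all 252 responses. The SDI1 difference of response stayed called in 21 of 21 (-2.84 to -1.75), and that of SDI2 was called in none (0.22 to 0.60). The LSU1 difference missed the threshold with signals as deposited (-1.95, adjusted p = 0.101), with 64 added (-0.58, adjusted p = 0.0529), with no filter (-1.82, adjusted p = 0.0782) and with no intensity trend (-1.82, adjusted p = 0.0595), and ran from -2.36 to -1.28 over the omissions. The GGCT2;1 difference missed it as deposited (-0.95), with no filter (-0.90, adjusted p = 0.0857) and with no intensity trend (-0.90, adjusted p = 0.0879), and ran from -1.17 to -0.63. With no filter more probe sets enter the adjustment; otherwise the cause was not tested.

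With signals as deposited the median over the tested probe sets moved to 0.26 in P and 0.61 in slim1-2 for the response, and to 0.22 on S1500 and 0.28 on S15 for the slim1 average against P. Directions that turned there were, against P on S15, SDI1 (0.11), LSU1 (0.39) and GGCT2;1 (0.15) in slim1-2 and LSU1 in the mean of both lines (0.10). They were also SDI2 on S1500 in slim1-1 (0.25), slim1-2 (0.0145) and the mean (0.13), SDI2 between the slim1 responses (-0.48), the parental responses of AT3G51280 (0.0777) and GGCT2;3 (0.13), ATPS3 (0.0481) and SIR (0.0505) on S1500, and SIR on S15 (0.00300). None of these was called in either setting. Omissions of 1 array turned SDI2 on S1500 in slim1-1 (-0.28 to 0.13), slim1-2 (-0.28 to 0.0936) and the mean (-0.27 to 0.10), and LSU1 on S15 in slim1-2 (-0.12 to 0.0756). They also turned the slim1-1 minus slim1-2 response of SDI1 (-0.30 to 0.15) and SDI2 (-0.12 to 0.30).

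The count of markers called in slim1-2 on S1500 fell to 1 as deposited, with 64 added, with no filter and with no intensity trend, and was 1 to 2 over the omissions. The count for the slim1-1 difference fell to 1 with no filter and with no intensity trend (1 to 3 over the omissions), and that for the slim1-2 difference was 1 to 2. With 64 added, 1 marker was called in slim1-1 on S15, GGCT2;1 (-0.39, adjusted p = 0.0411). On S1500 the calls of MGL (1.07), ATPS4 (-0.43), BCAT4 (-0.41), UGT74B1 (-0.28) and RCA (-0.37) were lost as deposited, as were those of ATPS3 (-0.62), UGT74C1 (0.96), GSTU20 (0.80), RCA (-0.33) and LHCB4.2 (-0.87) on S15. AT1G12030 was called on S15 with 64 added (0.57, adjusted p = 0.0182) and on S1500 as deposited (1.91, adjusted p = 0.00398). With the replicate number as a block (replicate block), no call of a marker changed, and the differences of response had adjusted p = 6.32e-06 for SDI1, 0.0191 for LSU1 and 0.0332 for GGCT2;1. The LSU1 signal in P-S1500 lay near background, which limits how far its parental response can be measured.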
